A study of Mus musculus with 4 samples.

Results

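The genes described here are 45 that encode the DNA replication machinery of S phase and the enzymes and regulators that serve it. They were chosen by name from 28034 genes with a probe on the array, and Orc2 to Orc6 were listed under older names. All 45 had at least 1 probe well above background on both arrays of a group and so entered the comparison. For 44 of them this held on all 4 arrays, and the exception was Ccne2, with 1 of 2 WT arrays.

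Gene expression was measured in full-thickness dorsal skin of C57BL/6 male mice, 42 days old, with telogen (resting) hair follicles per the labels. In the group called cKO, Fgf18, a secreted fibroblast growth factor, was deleted conditionally in epithelial cells that express keratin 5. The group called WT was C57BL/6, and the labels name no floxed allele or Cre driver for it. RNA from 3 mice, purified to polyA RNA, went into a single pool per genotype. Duplicate one-colour arrays were run for each pool, so the p-values below measure the spread between duplicate arrays and compare 2 RNA pools, not genotypes. Fgf18 itself read 1.86 on both cKO arrays and, in WT, 2.18 and 2.21, on the scaled log2 scale explained below. Its log2 change of -0.33 (limma adjusted p = 0.0035) was under 1.5-fold, and the deleted segment is not named, so its probe may lie outside it and checks nothing.

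Before S phase, the origin recognition complex together with Cdc6 and Cdt1 loads the MCM helicase onto chromatin, a step called licensing. Kinases, Mcm10, Cdc45 and the GINS complex then turn the helicase on. Polymerase alpha with primase starts each strand, polymerases epsilon and delta extend it on the sliding clamp PCNA, and Fen1 and Lig1 join the lagging strand pieces. Many of these genes are known targets of E2F transcription factors, which are held inactive in resting cells. In skin, cycling cells are known from the basal epidermis and from the matrix of growing hair follicles.

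The log2 change was above 0 in the cKO pool for 41 of the 45 genes, and the largest difference was 2.63-fold. A call needed 1.5-fold or more together with a limma adjusted p under 0.05. Of 45 genes 15 rose and 1 fell, and over all 17550 genes tested the share called was 5.68% for higher and 4.81% for lower. Their median log2 change was 0.39, with quartiles of 0.19 and 0.70, against -0.05 over all genes tested. At 2-fold the count was 5, namely Uhrf1, Mcm10, Mcm5, Mcm3 and Pole, against 2.93% of all genes. An adjusted p under 0.05 at any size was reached by 31 members upward and 2 downward, beside 22.2% and 33.6% of all genes. Both cKO arrays lay above both WT arrays for 39 members and below them for 4, and the arrays overlapped for 2, Orc4 and Rpa3. That share has a high background, since 33.8% of all genes had both cKO arrays higher and 48.1% had both lower. In bulk skin, more cycling cells and more RNA per cycling cell cannot be told apart.

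**Figure D1:**
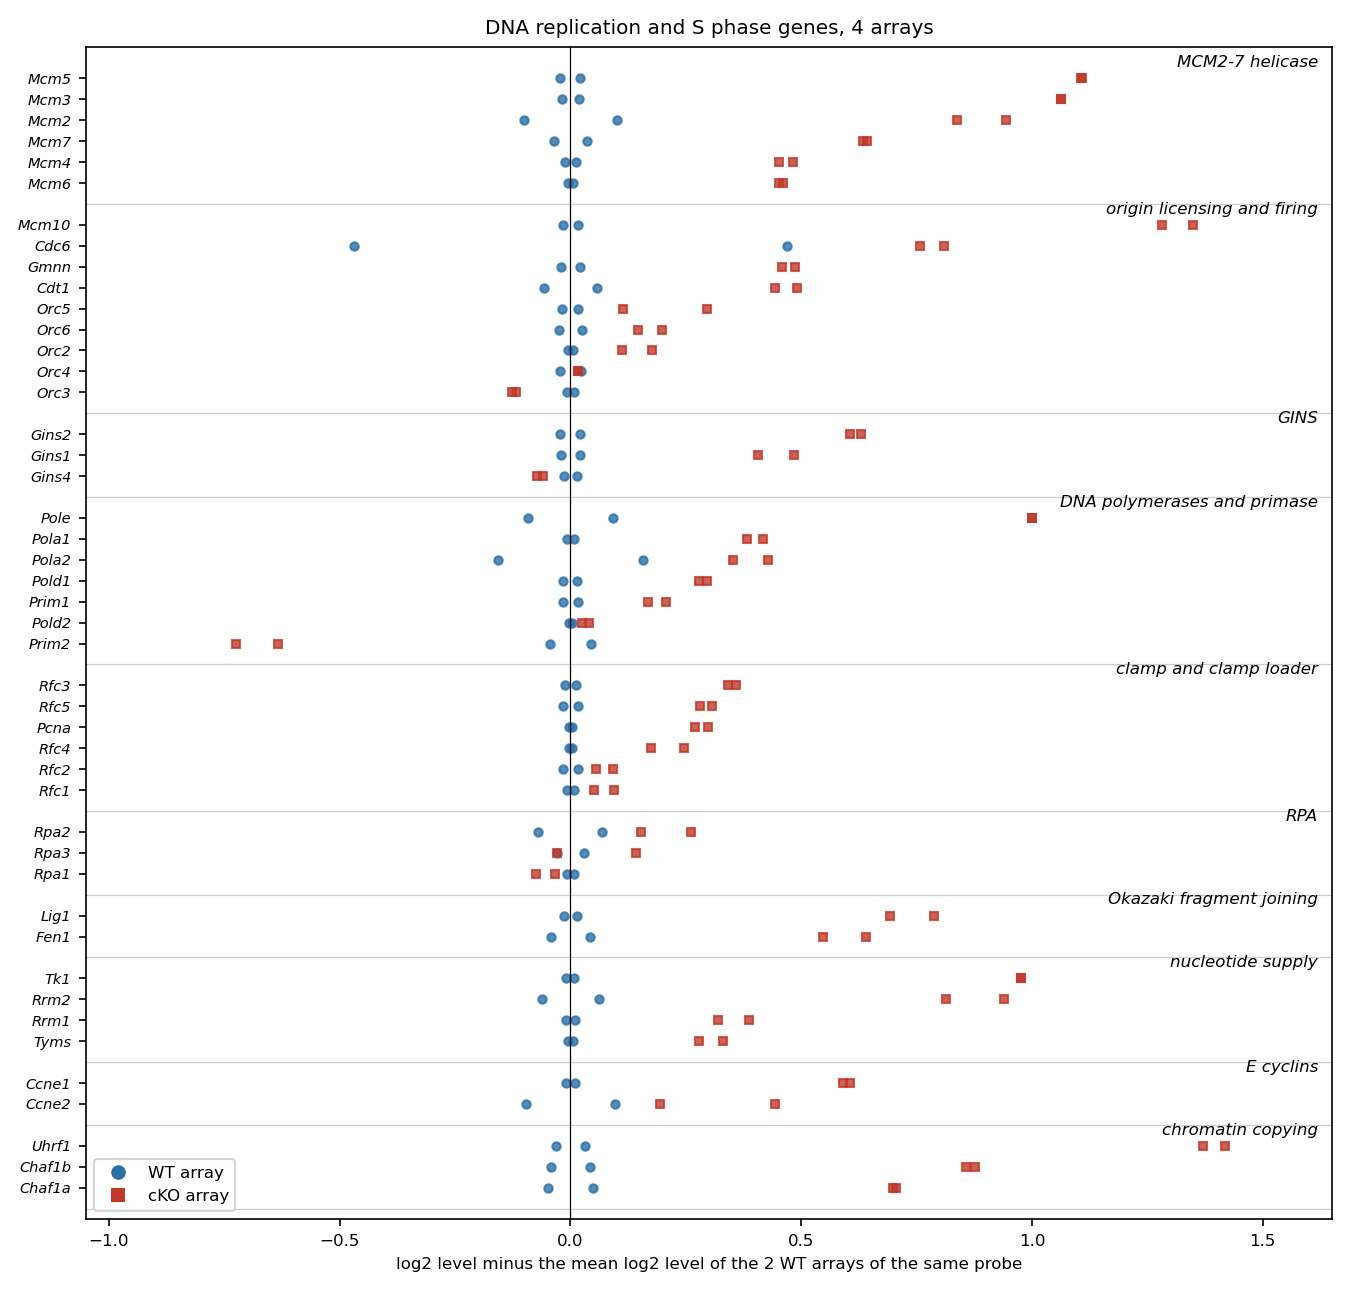
Each row is 1 of the 45 genes, grouped by role, and each point is 1 array; the horizontal axis is the scaled log2 level minus the mean of the 2 WT arrays (blue circles WT, red squares cKO). The cKO arrays of Uhrf1, Mcm10, Mcm5, Mcm3 and Pole lie at the far right, those of Prim2 lie below 0, and the WT arrays of Cdc6 lie far apart.

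Promoters of the group were searched for the E2F element, because it is the sequence known to tie these genes to S phase entry. RefSeq windows of build GRCm38.p6, from 250 bases before to 50 bases after the start, were matched by symbol for 36 of the 45 genes. Mcm4, Gmnn, Gins1, Gins2, Gins4, Prim2, Pole, Rfc2 and Ccne2 had no match. The words searched on both strands were TTTCCCGC, TTTCGCGC, TTTGCCGC and TTTGGCGC, and words on opposite strands may overlap. At least 1 was found for 12 of the 36 genes (33.3%), against 704 of 27025 genes in the whole table (2.61%), or 26.7% and 2.27% counted per window. The 250 bases before the start are printed for 6 members, with E2F words in capitals. Mcm5, Mcm6, Mcm7 and Uhrf1 show helicase and chromatin genes with such words, Orc3 a gene with a word and no rise, and Tk1 a gene that rose and held no word.
Mcm5 (chr8:75109259-75109508, plus strand): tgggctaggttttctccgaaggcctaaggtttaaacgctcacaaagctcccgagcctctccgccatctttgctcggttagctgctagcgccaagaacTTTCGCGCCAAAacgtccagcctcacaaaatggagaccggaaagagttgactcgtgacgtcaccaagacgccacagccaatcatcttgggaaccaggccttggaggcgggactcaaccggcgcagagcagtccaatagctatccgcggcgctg
Mcm6 (chr1:128359706-128359955, minus strand): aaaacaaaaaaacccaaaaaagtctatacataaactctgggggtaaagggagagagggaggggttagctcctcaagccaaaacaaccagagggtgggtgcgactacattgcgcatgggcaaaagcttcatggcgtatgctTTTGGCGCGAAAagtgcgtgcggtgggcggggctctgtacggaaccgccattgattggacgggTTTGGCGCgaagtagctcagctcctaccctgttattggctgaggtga
Mcm7 (chr5:138171884-138172133, minus strand): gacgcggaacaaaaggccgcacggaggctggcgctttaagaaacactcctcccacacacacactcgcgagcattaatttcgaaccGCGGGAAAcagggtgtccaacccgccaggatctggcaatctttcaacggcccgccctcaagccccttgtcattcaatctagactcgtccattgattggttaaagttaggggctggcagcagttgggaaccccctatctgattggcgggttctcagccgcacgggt
Uhrf1 (chr17:56304063-56304312, plus strand): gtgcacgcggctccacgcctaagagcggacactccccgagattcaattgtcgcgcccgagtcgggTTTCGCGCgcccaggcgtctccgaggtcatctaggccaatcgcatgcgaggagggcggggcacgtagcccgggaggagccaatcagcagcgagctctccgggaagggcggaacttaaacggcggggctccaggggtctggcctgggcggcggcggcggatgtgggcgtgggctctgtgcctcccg
Orc3 (chr4:34614943-34615192, minus strand): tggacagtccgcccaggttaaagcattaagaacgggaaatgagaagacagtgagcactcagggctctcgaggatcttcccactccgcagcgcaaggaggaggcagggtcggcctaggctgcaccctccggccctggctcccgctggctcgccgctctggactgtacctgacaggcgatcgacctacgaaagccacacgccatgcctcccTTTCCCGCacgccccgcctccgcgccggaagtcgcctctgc
Tk1 (chr11:117826015-117826264, minus strand): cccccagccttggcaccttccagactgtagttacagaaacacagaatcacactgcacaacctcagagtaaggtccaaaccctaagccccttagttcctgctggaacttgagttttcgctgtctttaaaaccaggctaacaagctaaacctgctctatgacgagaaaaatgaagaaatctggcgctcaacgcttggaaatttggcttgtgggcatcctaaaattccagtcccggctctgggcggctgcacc
In Mcm5 a TTTCGCGC at 153 bases before the start overlaps a TTTGGCGC on the other strand, so that the capitals form 1 run, and Mcm6 holds the same pair in the other orientation and a further TTTGGCGC at 47 bases before the start. The Uhrf1 window is the second of 2 starts in the table.

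E2F words were present in risen members and in members that were not called. They were found for 5 of 13 risen members with a window (38.5%) and for 7 of the 23 others (30.4%). Among the others were Cdc6, Cdt1, Pola1, Pold1, Rfc3, Mcm6 and Orc3. In Mcm3, Cdt1, Pold1 and Lig1 the words lay after the start, and Mcm7 and Rfc3 each had 1 word before the start and 1 after or at it. The CHR element of mitotic genes, searched as TTTGAA on both strands, showed another distribution. It was found for 3 of 36 replication genes (8.33%), 26 of 35 genes of mitosis (74.3%) and 5466 of 27025 genes in all (20.2%). Other S phase genes, a list described below, held it in 15 of 56 genes with a window (26.8%). In that list 22 of 56 genes (39.3%) held an E2F word, so E2F words were not particular to the members. CCAAT, a general promoter box, was found for 61.1% of replication genes and 41.1% of all genes. These matches are letters in a window and do not show binding.

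**Figure D2:**
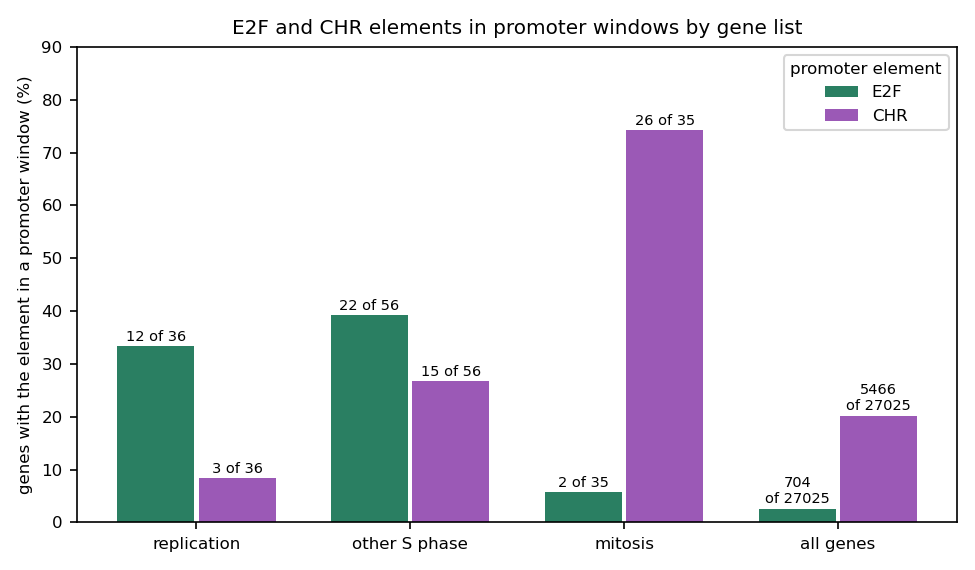
Bars give the percentage of genes with at least 1 E2F word (green) or CHR word (purple) in a promoter window, with counts above them, for replication genes, other S phase genes, mitosis genes and all genes of the table. E2F words reach 33.3% of replication genes, 39.3% of other S phase genes and 2 of 35 mitosis genes. CHR words reach 8.33%, 26.8% and 74.3% of the same lists.

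The 6 subunits of the MCM helicase, the ring that unwinds DNA, were all higher, and 4 of them rose. Levels are given as log2 of the processed signal relative to the 75th percentile of each array, and are not comparable between genes. Mcm5 stood at 1.58 on both cKO arrays and at 0.45 and 0.49 on the WT arrays. The rise was 2.15-fold (log2 1.11, SE 0.028, limma adjusted p = 0.00083), and the nearest cKO and WT arrays were 1.08 apart against 0.044 between duplicates. The scanner files place its probe at chromosome 8, 77651350 to 77651410, in build mm9. Gene models of that build were not used here, so probes are not assigned to exons or untranslated regions.

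Mcm3 followed closely, at 1.53 on both cKO arrays against 0.44 and 0.48 in WT (log2 change 1.06, SE 0.027, limma adjusted p = 0.00083). A second, dimmer probe of Mcm3 gave 0.77. Mcm2 had 0.34 and 0.45 in cKO and -0.59 and -0.39 in WT, a 1.85-fold rise with a wider duplicate gap of 0.20. Mcm7 had the smallest called change of the ring, with 3.0 and 3.01 against 2.40 and 2.33 (1.56-fold, limma adjusted p = 0.0022). Mcm4 and Mcm6 were higher without reaching 1.5-fold. Mcm4 read 1.93 and 1.96 in cKO and 1.49 and 1.47 in WT, a log2 change of 0.47 (SE 0.027). Mcm6 read 2.93 and 2.94 against 2.47 and 2.48, a log2 change of 0.46 (SE 0.023). No subunit had overlapping groups, and the subunits of this single complex differed in size of change from 0.46 to 1.11.

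Among the genes of origin licensing and firing, 1 of 9 rose, and Orc2 to Orc6, of the origin recognition complex, were not called. Mcm10, which helps to activate the loaded helicase, was at 0.06 and -0.0022 in cKO and at -1.30 and -1.27 in WT. It was 2.49-fold higher (log2 1.31, SE 0.036, limma adjusted p = 0.00091; chromosome 2, from 4911845 to 4911904 on mm9). The loading factor Cdt1 read 1.03 and 1.08 against 0.65 and 0.53. Its inhibitor geminin, encoded by Gmnn, read 1.33 and 1.30 against 0.86 and 0.82. Loader and inhibitor thus had the same log2 change, 0.47, with limma adjusted p of 0.0073 and 0.0025, and neither reached the fold threshold.

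Cdc6, the other loading factor, had -2.51 and -2.57 in cKO but -2.85 and -3.79 in WT. Its log2 change of 0.78 (SE 0.36, limma adjusted p = 0.15) was not called, and the WT duplicates differed by 0.94. Without WT replicate 1 it was 1.25 and called (adjusted p = 0.0099, in a range of 0.0099 to 0.34 over the alternatives), and its other probe gave 0.46. With the mean of both probes it was 0.62 and called as well.

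Orc2 to Orc6 are subunits of the complex that marks origins. Orc2, Orc5 and Orc6 had log2 changes of 0.14, 0.20 and 0.17 (limma adjusted p = 0.037, 0.096 and 0.026). Orc4 read 0.76 on both cKO arrays against 0.77 and 0.72 in WT, so that its groups overlapped. Orc3 was slightly lower, with -0.0067 and -0.015 against 0.11 and 0.12 (log2 change -0.12, limma adjusted p = 0.021). All 3 of its probes lay between -0.16 and -0.12.

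The GINS complex, which joins the active helicase, showed unequal values. Gins2 rose 1.53-fold, from -1.88 and -1.93 in WT to -1.30 and -1.27 in cKO (limma adjusted p = 0.0018). With normexp and quantile normalization its log2 change was 0.52 and it was not called. Gins1 had a log2 change of 0.45, and its 2 probes gave 0.45 and 0.44. Gins4 read 0.59 and 0.60 in cKO and 0.68 and 0.65 in WT, a log2 change of -0.07 (limma adjusted p = 0.10).

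Of the 7 genes of DNA polymerases and primase, 1 rose and 1 fell. Pole, the catalytic subunit of polymerase epsilon, rose 2.0-fold (log2 1.0, SE 0.074, limma adjusted p = 0.0033), with 0.061 on both cKO arrays and -1.03 and -0.85 in WT. Its probe is at chromosome 5, 110766365 to 110766424 (mm9). The polymerase delta subunits Pold1 and Pold2 had log2 changes of 0.29 (adjusted p = 0.0046) and 0.03 (adjusted p = 0.30) by limma. For Pold1, a further probe gave 0.28. Pola1, the catalytic subunit of polymerase alpha, read -0.20 and -0.17 against -0.59 and -0.58 (log2 change 0.40, limma adjusted p = 0.0028). Its partner Pola2 had 0.39 with a larger error (SE 0.13, limma adjusted p = 0.074).

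Primase makes the RNA primers that polymerase alpha extends, and its 2 subunits went different ways. Prim1, the catalytic subunit, read 1.91 and 1.87 in cKO and 1.69 and 1.72 in WT, a log2 change of 0.19 (SE 0.030). Prim2, the large subunit, was the member that fell. It stood at -1.08 and -1.17 in cKO and at -0.49 and -0.40 in WT, or 1.60-fold lower (log2 -0.68, SE 0.053, limma adjusted p = 0.0037). The groups lay 0.59 apart against 0.092 between duplicates. Prim2 was measured by 1 probe (chromosome 1, from 33510733 to 33510792 on mm9), and its log2 change lay between -0.72 and -0.63 in all 15 alternatives.

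None of the 6 genes of the sliding clamp and its loader was called, although each had both cKO arrays above both WT arrays. Pcna, the clamp itself and a common marker of cycling cells, read 2.96 and 2.99 in cKO and 2.69 on both WT arrays. Its log2 change was 0.28 (SE 0.024, limma adjusted p = 0.0043), or 1.22-fold. Of the loader, Rfc3 had 0.35, Rfc5 0.29 and Rfc4 0.21, with limma adjusted p from 0.0032 to 0.017. The large subunit Rfc1 and Rfc2 both had 0.07 (limma adjusted p = 0.11). The RPA trimer, which coats single-stranded DNA in replication and repair, had no member called. Rpa1 had -0.05, with 2.09 and 2.05 against 2.12 and 2.13, and its sign turned to 0.02 under both quantile normalizations. Rpa2 had 0.21 (limma adjusted p = 0.083) and Rpa3 0.06, with overlapping groups.

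Both genes of Okazaki fragment joining rose. Lig1, the replicative DNA ligase, read 2.18 and 2.08 against 1.38 and 1.40 (1.67-fold, limma adjusted p = 0.0024). Fen1, the flap endonuclease, read -1.01 and -1.10 against -1.69 and -1.61 (1.51-fold, limma adjusted p = 0.0046). Fen1 sat at the fold threshold and lost its call in several settings. The log2 change of Fen1 was 0.55 without cKO replicate 1 and 0.55 without WT replicate 1. It was 0.57 with quantile normalization and 0.50 with normexp before it.

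Nucleotide supply genes fell into a pair that rose and a pair that did not reach the fold threshold. Tk1, the thymidine kinase of cycling cells, stood at 1.99 on both cKO arrays and at 1.02 and 1.01 in WT. The change was 1.97-fold (log2 0.98, SE 0.023, limma adjusted p = 0.00076). Rrm2, the regulated subunit of ribonucleotide reductase, read -1.48 and -1.35 against -2.23 and -2.36, a 1.84-fold rise. Its partner Rrm1, known as a more stable subunit, was at 1.59 and 1.66 against 1.26 and 1.28 (log2 change 0.35, SE 0.035). Thymidylate synthase, encoded by Tyms, had 0.30 by each of 2 probes.

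Cyclin E partners Cdk2 at the start of S phase. Ccne1 rose 1.51-fold, from -0.55 and -0.57 to 0.03 and 0.04 (limma adjusted p = 0.0015), and its call was lost after normexp and quantile normalization (log2 0.55). In WT its other probe stayed near background on both arrays. Ccne2 lay near background, with -4.66 and -4.41 against -4.94 and -4.75, and its log2 change of 0.32 (SE 0.12, limma adjusted p = 0.11) was not called.

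All 3 members grouped here under the copying of chromatin behind the fork rose. Uhrf1, which brings the maintenance methyltransferase Dnmt1 to newly copied DNA, had the largest change of the 45. In cKO its processed signal read 2704 and 2896, and in WT 928 and 1003. On the scaled log2 scale this is 0.95 and 0.99 against -0.45 and -0.39, which is 2.63-fold higher (log2 1.39, SE 0.037, limma adjusted p = 0.00090). A second probe gave 1.44, and the probe used is at chromosome 17, 56462657 to 56462716 (mm9). The histone chaperone subunits Chaf1b and Chaf1a rose 1.82-fold and 1.63-fold, from -0.60 and -0.69 to 0.21 and 0.23, and from -0.77 and -0.87 to -0.12 on both cKO arrays.

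**Figure D3:**
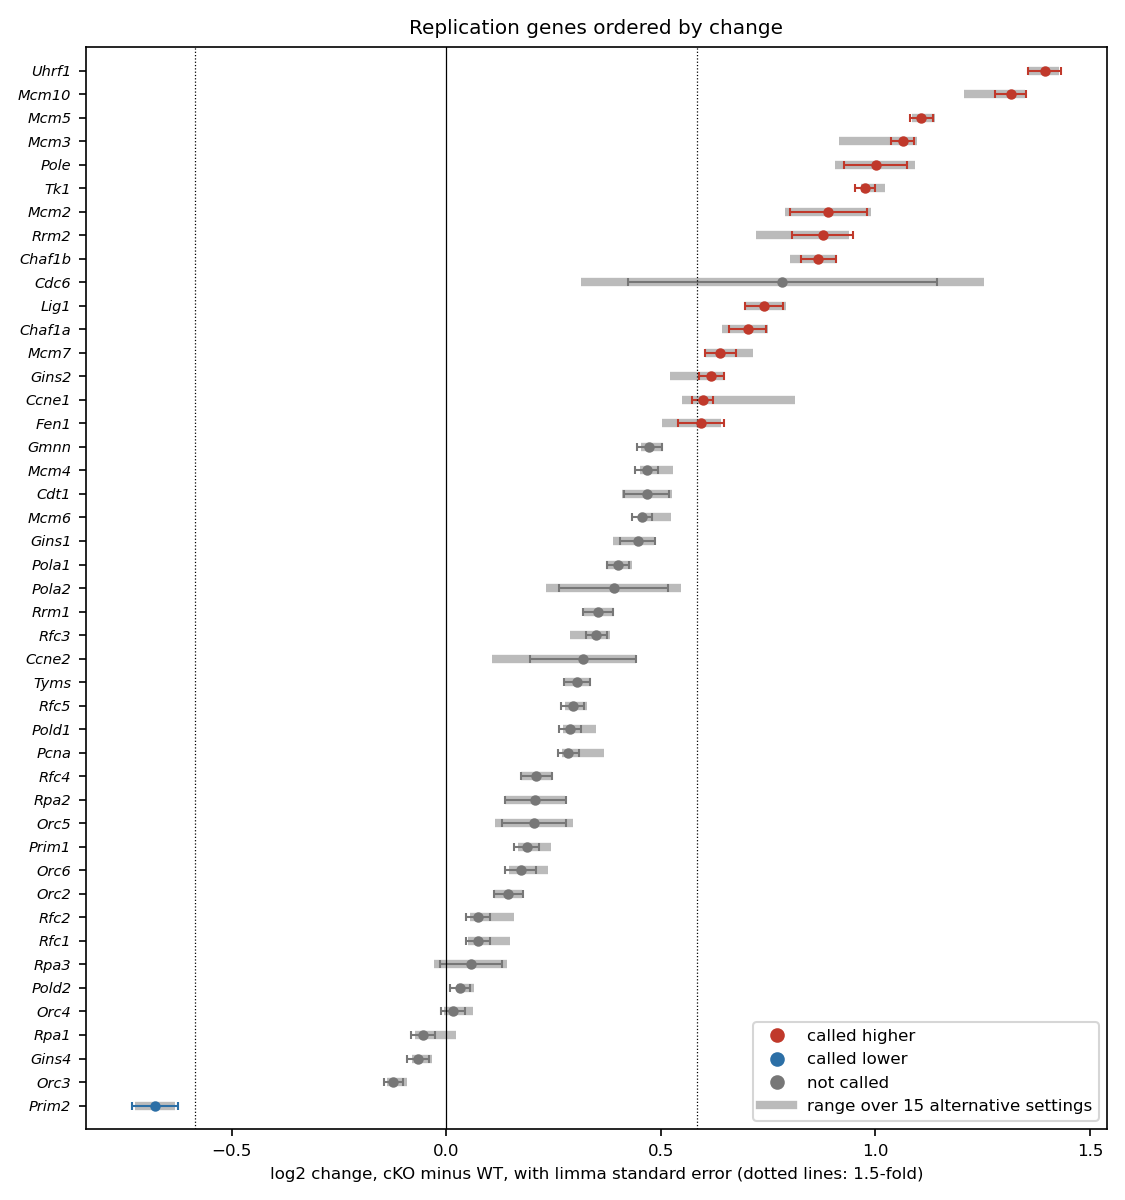
Points are log2 changes, cKO minus WT, with limma standard errors, for the 45 genes in order of change; red is called higher, blue called lower, grey not called, and grey bars span the 15 alternative settings. Uhrf1 is at the top with 1.39, Prim2 at the bottom with -0.68, and Cdc6 has the widest bar, from 0.31 to 1.25.

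Measurements of the same gene by different probes kept 1 direction. Among the members, 10 had more than 1 probe well above background on all 4 arrays, and in these 10 the probes gave the same sign. The probes of a gene differed by a median of 0.043 on the log2 scale, and by at most 0.32, for Cdc6.

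Other S phase genes, from a list of 68 that holds no member, had a similar median. Of these 25 rose and none fell, with a median log2 change of 0.42, and 51 were higher at an adjusted p under 0.05 in limma against 3 lower. Among its largest rises, Exo1, an exonuclease of mismatch repair, was 3.27-fold higher. The others were Chtf8, part of an alternative clamp loader (2.90-fold), Clspn, a replication checkpoint mediator (2.63-fold), the repair gene Brca1 (2.54-fold) and the PCNA-binding factor gene Pclaf (2.16-fold). Clspn was well above background on 1 of 2 WT arrays. Orc1, the largest origin recognition subunit, was dim in WT, with neither array well above background. It was at least 1.22-fold higher (limma adjusted p = 0.016), a call lost without either cKO array, without the filter on dim probes and after normexp and quantile normalization. The bound sets the mean of the cKO arrays against the lowest signal well above background on each WT array. Bright genes of that list that were not called included Dctpp1 (log2 0.18), Rnaseh2c (-0.12) and Pole3 (-0.11).

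Mitosis and spindle genes, a list of 42, had larger changes than the replication genes. In that list 35 rose and 1 fell, with a median log2 change of 0.97 against 0.39, and 19 against 5 passed 2-fold at an adjusted p under 0.05. The largest rises were those of Ncapg, a condensin subunit (2.44-fold), the mitotic cyclin Ccnb1 (2.39-fold), the kinesin Kif2c (2.34-fold) and the mitotic kinase Cdk1 (2.32-fold). All 4 were below Mcm10 (2.49-fold) and Uhrf1 (2.63-fold) in size, but the lower quartile of mitosis genes, 0.88, was above the upper quartile of replication genes, 0.70. Pttg1, which encodes securin, fell by 1.95 on the log2 scale. The difference between the lists is given as a description and has no test.

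**Figure D4:**
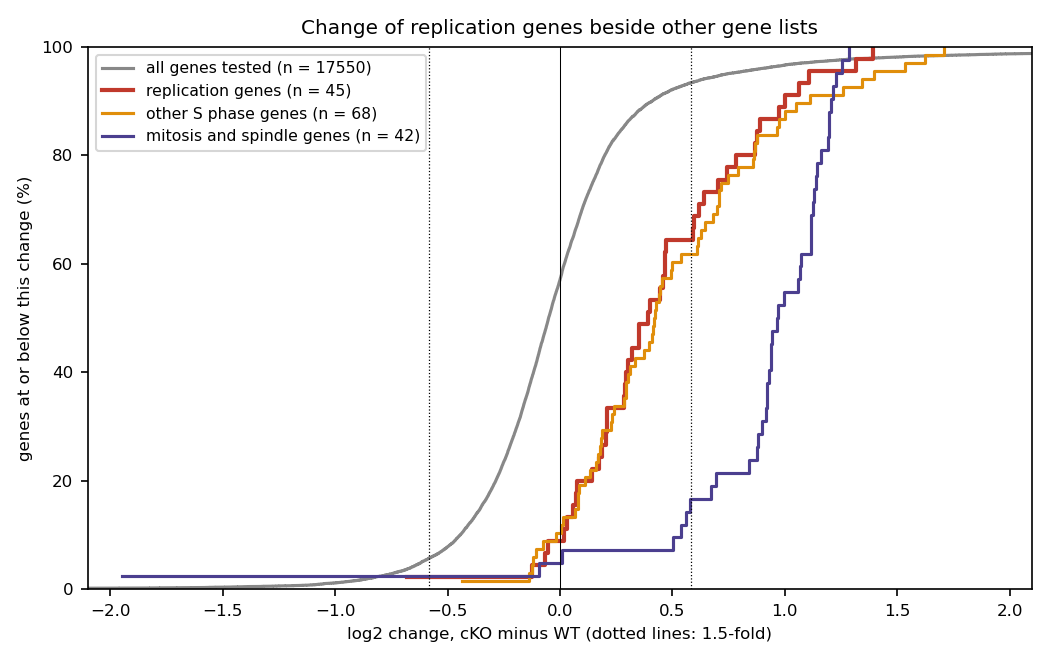
Lines give the percentage of genes at or below each log2 change, cKO minus WT, for all 17550 genes tested (grey), the 45 replication genes (red), 68 other S phase genes (orange) and 42 mitosis genes (purple); dotted lines mark 1.5-fold and the axis is limited to the central range. The medians are -0.05, 0.39, 0.42 and 0.97.

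Markers of cell types that the skin holds were set beside these values. Hair shaft and inner root sheath markers moved with the cKO pool, as 13 of 13 measured rose. Their summed level, relative to the 75th percentile, was 333 to 335 on the cKO arrays and 1.95 to 2.04 on the WT arrays. Each such sum adds the levels of different probes, so the brightest probes weigh most in it. These genes are made in growing follicles, whereas the labels give telogen for both pools. The hair cycle stage of the pooled mice was not tested. In WT Krt25, Krt34, Krt82, Krt85 and Krt86 lay below background. Of 9 hair matrix markers 7 rose, with sums of 11.7 to 11.8 against 5.95 to 6.13. Among the 7, Shh had neither WT array well above background and was at least 2.38-fold higher. Melanocyte markers rose in 6 of 7 cases (sums 14.6 to 14.8 against 9.15 to 9.23), and Tyr was not well above background in either group. Among the 6, Oca2 had neither WT array well above background and was at least 1.16-fold higher, a bound under 1.5-fold. Basal epidermis, also known to hold cycling cells, had none of 8 markers called, with sums of 545 to 553 against 551 to 581. At a limma adjusted p under 0.05 and any size, 3 of the 8 were higher, beside 22.2% of all genes tested. These were Krt14, Trp63 and Dst, and none of the 8 was lower at that threshold. For the 5 others both cKO arrays lay below both WT arrays. In differentiated epidermis Krt2 rose among 10 markers (sums 645 to 660 against 775 to 835). Krt2 was the dimmest of the 10, with processed signals of 131 and 139 in cKO and 72.6 and 86.0 in WT, and its rise was 1.55-fold. The 9 others had both cKO arrays below both WT arrays, 8 of them at a limma adjusted p under 0.05, and none of the 9 was called; the median log2 change of the 10 was -0.30.

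Immune markers held 1 called gene. Of 6 lymphocyte markers Cd4 rose, at least 14.0-fold, with neither WT array well above background. The 5 others, such as Cd3d, Cd3e and Cd8a, were not called. In that list the B cell markers Ms4a1 and Cd79a were not well above background in either group and entered no sum. The sums of the 6 measured lymphocyte markers were 1.58 in cKO and 1.20 to 1.33 in WT. None of 7 macrophage and Langerhans cell markers was called (24.98 to 25.8 against 27.6 to 27.9). Skeletal muscle markers fell in 4 of 10 cases (1091 to 1094 against 1474 to 1558) and adipocyte markers in 3 of 8 (248.9 to 249.8 against 248.7 to 249.1). Endothelial markers fell in 1 of 6 (11.0 to 11.1 against 14.7 to 14.8). At a limma adjusted p under 0.05 and any size, all 10 muscle and all 6 endothelial markers were lower, beside 33.6% of all genes tested. Of the adipocyte markers 6 were lower at that threshold and 1 was higher, namely Fabp4, the brightest of them (log2 0.19). Among 7 fibroblast markers Dpt rose and Lum fell (776 to 778 against 835 to 916). Regardless of size, 3 fibroblast markers were lower and 1 higher at a limma adjusted p under 0.05. The macrophage and Langerhans cell list had the same counts, 3 lower and 1 higher. Of all genes tested, 33.6% were lower and 22.2% higher at that threshold. The part of any of these cell types in the values of the replication genes was not tested.

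Signal and the share of spots well above background were somewhat higher on the cKO arrays. The 75th percentile of signal was 1403 and 1453 for cKO and 1271 and 1316 for WT. The share of non-control spots well above background was 64.6% and 69.1% for cKO and 63.1% and 62.1% for WT. Over 11970 probes not well above background on any array, the median difference in scaled log2 level was -0.70, cKO minus WT. How far this offset reaches dim genes was not tested.  Duplicate arrays of 1 pool carry no spread between mice, and the number of arrays limits the precision.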

How the data were processed

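Agilent one-colour microarrays of 4 hybridisations (Cy3, 200 ng RNA) on 1 slide were quantified by Feature Extraction 10.7.3.1, as the headers record. The deposited spot intensity was background-subtracted and detrended within each array, per the file headers. The authors' processed values equalled a linear ratio of that intensity to a constant of each array. Column medians were 0.114 and 0.112 in cKO and 0.112 and 0.113 in WT. They were not centred per gene and served as an alternative. How the constant was set is not given in the sources.

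From the intensity, log2 was taken and each array's 75th percentile over 43379 non-control spots subtracted. Control and outlier spots were left out, and spots of a probe averaged. No spot beyond the controls was saturated. Probes were kept if well above background on both arrays of a group, and the brightest kept probe stood for a gene. Names were updated through RefSeq genes of GRCm38.p6: accessions named 26690 probes, current symbols 5189 and older symbols 952, while 8343 probes stayed as in the files. Both pools entered a two-sided limma fit with eBayes (limma 3.58.1, R 4.3.3), adjusted by Benjamini-Hochberg over all genes tested and tested on simulated data. Python 3.11.15, pandas 2.3.3 and matplotlib 3.10.9 were also used.

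The members and lists were chosen with earlier results of these data known. Named were all members, Fgf18, up to 6 called genes per direction and the 4 brightest uncalled genes of the other S phase list, and the 4 largest rises and any fall of the mitosis list; 1 uncalled gene that this rule names is not reported here. Marker genes, and the other probes or words singled out, were named after their values were seen. Alternatives were other background corrections, scalings, filters, probe rules, spot flags and variance moderation, arrays left out singly, and a replicate block.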

Additional observations from a re-analysis of the deposited data

How the results depend on the processing

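Over 15 alternatives the number of replication genes called higher ran from 12, with normexp and quantile normalization, to 16, with probes of a gene averaged, and 1 gene was called lower in each. Their median log2 change lay between 0.34 and 0.42. With arrays left out singly it ran from 0.34 (without WT replicate 1) to 0.41, a shift beyond the 0.039 spread (SD) of the member median between duplicates. The count of other S phase genes called lower was 0 to 1 in the same runs, with 1 without WT replicate 2; the cause was not tested. Values near 0 changed sign, namely Orc4 without WT replicate 2 (-0.0059), Rpa1 with normexp and quantile normalization (0.022) and with quantile normalization (0.021), Rpa3 without cKO replicate 2 (-0.029, to 0.14 in the other runs with an array left out) and Rnaseh2c with quantile normalization (0.0019); none of these 4 genes was called under any alternative. The replicate number gave no pairing of arrays (correlation of deviations -0.043), and with the replicate block 15 replication genes were called higher and 1 lower, 24 other S phase genes higher and 34 mitosis genes higher. Without the filter on dim probes the median of all genes tested moved by -0.11. Signal over background limits Ccne2, Orc1 and Clspn, which were not well above background on every WT array.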

Other observations

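Probes that were not well above background on any array showed a common offset between the pools. Of the member probes, 5 were not well above background on any array, 1 each of Mcm4, Orc5, Pola2, Pole and Rrm1, and their differences in scaled log2 level, which measure no expression, lay between -0.72 and -0.69, cKO minus WT. Over all 11970 such probes of the array the median was -0.70. The brighter probes of the same genes gave log2 values of 0.47 (Mcm4), 0.20 (Orc5), 0.39 (Pola2), 1.0 (Pole) and 0.35 (Rrm1).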
